A study of Mus musculus with 8 samples.

Results

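The protocadherin genes of 4 mouse fibrosarcoma cell lines are described here. The members were the rows of the deposited table that are annotated as protein coding and carry a protocadherin symbol, from the clustered families (Pcdha, Pcdhb, Pcdhg) or the numbered genes outside the clusters. There were 49 of them among the 18768 genes of the table. Of these, 41 lie in the 3 tandem clusters on chromosome 18 between positions 37143503 and 37841873 (mm10), with 1 gene of the alpha cluster (Pcdhac2), 19 of the beta cluster and 21 of the gamma cluster. The gamma genes comprise 12 of A type, 6 of B type and 3 of C type. The other 8 (Pcdh1, Pcdh7, Pcdh9, Pcdh10, Pcdh15, Pcdh17, Pcdh18 and Pcdh20) stand alone outside the clusters. Of these, Pcdh1 also lies on chromosome 18, at 38185914 to 38212053, beyond the end of the gamma cluster. Members were taken by symbol and annotation alone, but the group was chosen with earlier results of these data known.

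The lines were grown from tumors that methylcholanthrene, a chemical carcinogen, had raised under the skin of C57BL/6 mice. MC010 and MC011 come from IRF8 knock-out (KO) mice and MC654 and MC659 from wild-type (WT) mice, where IRF8 is a transcription factor of the interferon regulatory family that acts in myeloid cells. The KO was thus inherited from the mouse rather than made in culture, and each label rests on 2 lines. The lines themselves were typed by PCR of their DNA with primers for the WT and the mutant Irf8 allele, and the labels follow that typing. Each line was established from dispersed tumor tissue by serial passage and was not described as a clone. Stranded libraries of mRNA were made from untreated cultured cells, 2 per line, so that 4 libraries stood against 4 but only 2 lines against 2. Libraries held 74063616 to 116206078 counts, and 3 counts, taken as the floor, corresponded to 0.0258 to 0.0405 CPM, the counts per library scaled by edgeR's TMM method. The RNA counted for the targeted gene (Irf8) was higher in the lines labelled IRF8 KO, with 442 and 347 counts in MC010, 32 and 10 in MC011, 1 and 2 in MC654, and 1 and 0 in MC659. Counts over the whole gene do not tell whether reads come from the deleted part, so they do not check the genotype, and the lines are named by their labels throughout.

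Protocadherins are the largest group within the cadherin superfamily of calcium-dependent adhesion proteins and are best known from neurons. Each alpha and gamma variable exon has its own promoter and is spliced to constant exons shared by its cluster, whereas each beta gene is a single exon. A neuron switches on only a few of the variable promoters, by a choice that involves DNA methylation, the insulator protein CTCF and cohesin, and the chosen isoforms give the cell an identity that its neurites recognize. The C-type genes at the end of the alpha and gamma clusters escape this choice and are used more evenly. The non-clustered protocadherins fall into the delta families and a few divergent genes, and they regulate adhesion, migration and the cytoskeleton, also outside the nervous system.

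What the counts cover differs between the classes. The 21 gamma genes share their last exons and end at the same place, 37841870 to 37841873, and reads from shared exons cannot be given to a single gene. Only the part of each gene that overlaps no other gene on the same strand was therefore taken as countable. This part spans 1570 to 4614 bases in gamma genes, 2801 to 8695 in beta genes, 3028 in Pcdhac2 and 5366 to 23773 in the non-clustered genes. Windows of 75 bases were used to count sequence shared with other genes, over all annotated transcripts. The share was 31.1 to 63.8% in gamma genes and 48.0% in Pcdhac2, most of it the constant exons, but 0.201 to 8.96% in beta genes and 0 in all 8 non-clustered genes. Beta paralogs are thus separable over most of their length, with Pcdhb21 (8.96%) and Pcdhb22 (5.99%) sharing the most. The strand setting of the counting is not given in the sources used here, so reads of a gene and its antisense partner may not be separate. Gm26672 lies antisense to the whole countable part of Pcdhga10 and to parts of Pcdhgb7, Pcdhga11 and Pcdhga12. BC037039 overlaps part of Pcdhgc3, leaving 1821 of 3380 countable bases free, and 4932441J04Rik part of Pcdh7, leaving 8369 of 10604. Others overlap parts of Pcdhga7 and Pcdhga8 (Gm37165), Pcdhga1 (Gm37118), Pcdhb12 (Gm37446) and Pcdh10 (1700027H10Rik). Of these antisense genes, only Gm26672 has its counts given below.

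The promoters of 3 non-clustered genes of the delta-2 family, Pcdh10, Pcdh17 and Pcdh18, are shown because all 3 genes had higher counts in both lines labelled IRF8 KO, and that of Pcdh20 because its RNA was near the floor in 3 of the 4 lines. Each is the 250 bases before the RefSeq start (GRCm38.p6), written 5′ to 3′ on the gene's strand. Capitals mark CCAAT (the CCAAT box), GGGCGG (the GC box) or their reverse complements.
Pcdh10, chr3:45378148-45378397, plus strand: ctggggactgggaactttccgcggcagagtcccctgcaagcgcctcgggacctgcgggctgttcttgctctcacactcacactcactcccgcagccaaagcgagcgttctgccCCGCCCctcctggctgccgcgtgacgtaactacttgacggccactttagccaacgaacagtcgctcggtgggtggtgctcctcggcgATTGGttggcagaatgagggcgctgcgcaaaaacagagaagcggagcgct
Pcdh17, chr14:84443313-84443562, plus strand: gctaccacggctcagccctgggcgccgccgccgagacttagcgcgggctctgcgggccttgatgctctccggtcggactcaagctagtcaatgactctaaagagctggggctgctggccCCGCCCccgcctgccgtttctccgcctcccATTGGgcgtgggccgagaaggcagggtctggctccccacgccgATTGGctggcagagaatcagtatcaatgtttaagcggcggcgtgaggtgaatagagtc
Pcdh18, chr3:49757317-49757566, minus strand: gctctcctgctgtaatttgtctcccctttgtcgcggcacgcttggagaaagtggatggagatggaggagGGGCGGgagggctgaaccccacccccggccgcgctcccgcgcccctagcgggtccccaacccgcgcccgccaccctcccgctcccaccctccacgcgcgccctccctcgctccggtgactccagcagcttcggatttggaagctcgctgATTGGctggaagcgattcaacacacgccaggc
Pcdh20, chr14:88471397-88471646, minus strand: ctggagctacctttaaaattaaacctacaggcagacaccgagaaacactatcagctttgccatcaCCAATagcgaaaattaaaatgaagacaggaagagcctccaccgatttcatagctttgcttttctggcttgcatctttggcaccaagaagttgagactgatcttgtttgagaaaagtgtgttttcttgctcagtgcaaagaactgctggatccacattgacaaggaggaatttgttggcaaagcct
The promoters of Pcdh10, Pcdh17 and Pcdh18 each held at least 1 CCAAT box and 1 GC box. They had 63.2, 64.8 and 68.0% G and C and 22, 21 and 23 CG dinucleotides. The Pcdh20 promoter had 42.4% G and C, 3 CG dinucleotides, a CCAAT box and no GC box, and the medians over all 32851 promoters of the same length were 52.4% and 6. Pcdh7 and Pcdh15 also had higher counts in both lines labelled IRF8 KO. Their promoters, not printed, had 7 and 6 CG dinucleotides and no GC box, and that of Pcdh7 no CCAAT box. The promoter of Pcdh9, lower in MC010 and higher in MC011, had 18 CG dinucleotides. Whether the makeup of a promoter bears on these levels was not tested. Searched on both strands, CCAAT was in 33.8% and GGGCGG in 32.7% of all promoters. Among the members, promoters were read for 7 non-clustered genes only (also Pcdh7, Pcdh9 and Pcdh15). Those of Pcdh1 and of all clustered genes were left out, so nothing is said of their motifs. The 7 promoters held no GAAANNGAAA, a pair of GAAA half-sites as in interferon-response elements, which was in 2.98% of all promoters. Of the 7, only that of Pcdh15 held TATAAA, found in 12.4% of all promoters.

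The protocadherin profile differed from line to line. With 1 group per line, edgeR's quasi-likelihood test called 41 of the 47 members tested as different between the 4 lines, against 52.2% of all 16703 genes tested (adjusted p under 0.05 and a log2 difference above 0.59 between 2 lines). Between the labels, 26 of 41 members tested were called, 20 higher and 6 lower in the lines labelled IRF8 KO, where 22.5% of 15153 genes were called, 13.7% higher and 8.72% lower. The median log2 fold change was 1.11 over the 41 members and 0.02 over all genes tested. The 8 members too low for the comparison of labels were Pcdhb3, Pcdhb6, Pcdhb8, Pcdhb10, Pcdhb11, Pcdhb12, Pcdhga9 and Pcdh20, none above 98 counts in any library, and Pcdhb3 and Pcdhb12 (18 counts at most) were also too low for the comparison of lines. Members that passed only through the lines where they are high had to differ, so these counts do not stand for all 49.
The 2 libraries of a line share a tumor, and p-values across 8 libraries measure the spread between libraries rather than between independent tumors. With the line as a random block (limma-voom, estimated correlation 0.828), 12 of 41 members tested were called, beside 12.4% of all 15153 genes tested. Over all genes, 3404 were called without the block and 1876 with it. The 12 members were all among the 26 called without the block. These were Pcdhac2, Pcdhb15, Pcdhb16, Pcdhb17, Pcdhb22, Pcdhga4, Pcdhga6, Pcdhgb1, Pcdhgc5, Pcdh7, Pcdh10 and Pcdh18. When the 2 libraries of a line were summed, 2 lines against 2, edgeR called 0 members and 0.0% of all genes.

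**Figure D1:**
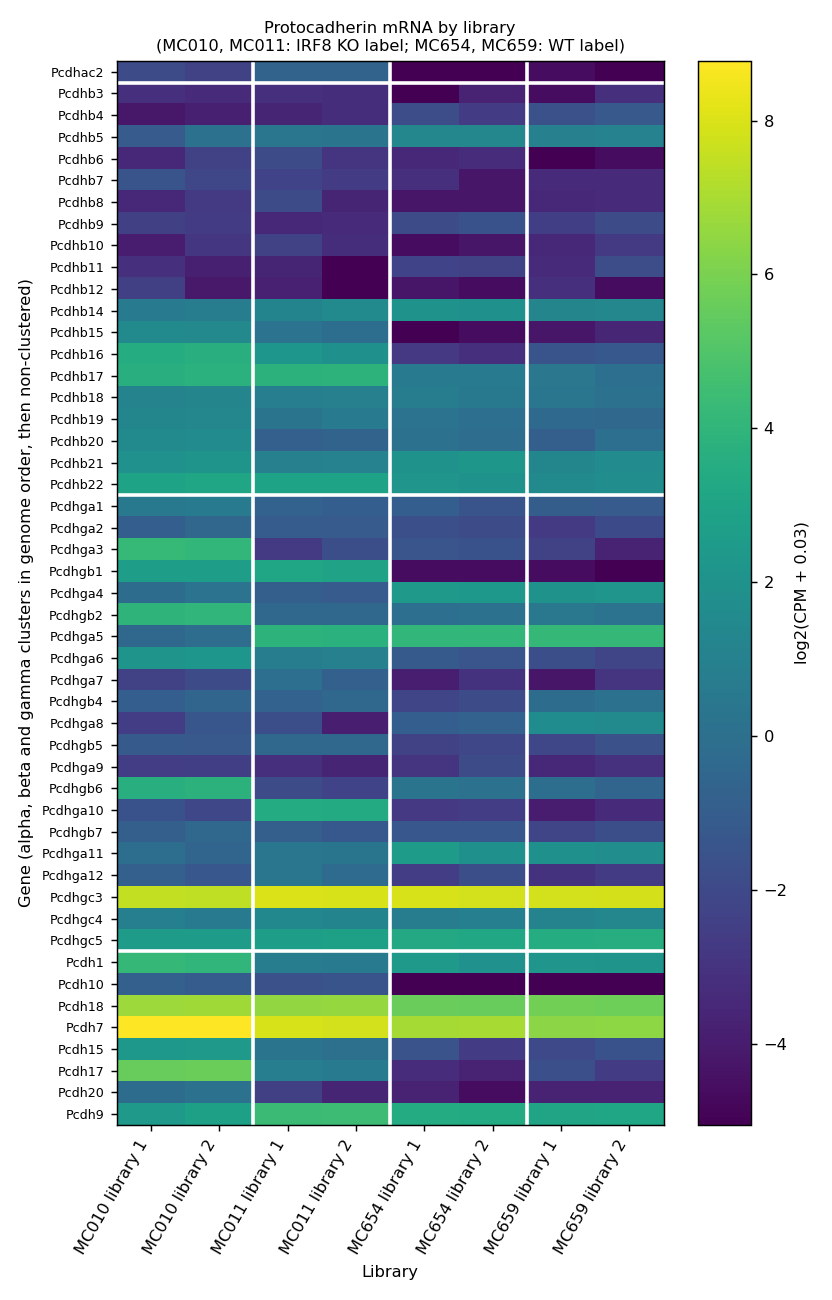
Heat map of log2(CPM + 0.03) for the 49 protocadherin genes (rows: alpha, beta and gamma clusters in genome order, then non-clustered genes, separated by white lines) in the 8 libraries (columns, 2 per line). Pcdhgc3 and Pcdh7 are bright in every library. The set of bright gamma A and B genes differs between MC010, MC011 and the lines labelled WT, and Pcdhga5 is bright in all lines but MC010.

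The C-type gamma genes carried most of the gamma RNA in every line. Pcdhgc3, an isoform found in many tissues, was the highest protocadherin per length in all 4 lines, at 52.3, 74.7, 70.2 and 69.4 CPM per kb of countable length in MC010, MC011, MC654 and MC659. Its libraries gave 181 and 173 CPM in MC010, 260 and 245 in MC011, 245 and 229 in MC654, and 228 and 241 in MC659. MC010 was thus the lowest line, and the other 3 lay between 228 and 260 CPM. Between labels its log2 fold change was −0.14 ± 0.14 (SE; edgeR adjusted p = 0.477), and no contrast of lines passed the fold threshold. Pcdhgc5, a neuronal isoform in the healthy brain, had 6.09 and 6.01 CPM in MC010, 6.33 and 6.97 in MC011, 9.66 and 9.34 in MC654, and 11.5 and 11.8 in MC659. Every library labelled WT was above every library labelled IRF8 KO, with a log2 fold change of −0.74 ± 0.13 (adjusted p = 0.00266, and 0.0385 with the line as a block). Pcdhgc4, which neurons need for their survival, ranged from 1.5 to 2.56 CPM over all libraries and was not called (−0.02 ± 0.23).

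The A and B types of the gamma cluster had different predominant genes in MC010, in MC011 and in the 2 lines labelled WT, which shared their 3 leading genes, as the bar plot of their shares shows. In MC010, Pcdhga3 took 27.3% of the A and B counts, Pcdhgb2 24.1% and Pcdhgb6 20.7%. In MC011, Pcdhga5 took 33.4%, Pcdhga10 25.5% and Pcdhgb1 18.9%. In MC654, Pcdhga5 took 52.9%, Pcdhga4 15.9% and Pcdhga11 14.4%, and in MC659 the same genes took 53.6, 12.6 and 10.4%, followed by Pcdhga8 at 9.0%. The 3 leading genes of 18 together held 72.1, 77.9, 83.2 and 76.7%, and the 2 libraries of a line differed by at most 5.28 percentage points for any gene. The summed level of the 18 genes was 66.0 ± 1.55 CPM in MC010, 42.7 ± 2.53 in MC011, 32.3 ± 1.27 in MC654 and 33.2 ± 0.60 in MC659 (SD, n = 2 libraries). These shares are averages over the cells of a culture and do not tell how many isoforms a single cell expressed.

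**Figure D2:**
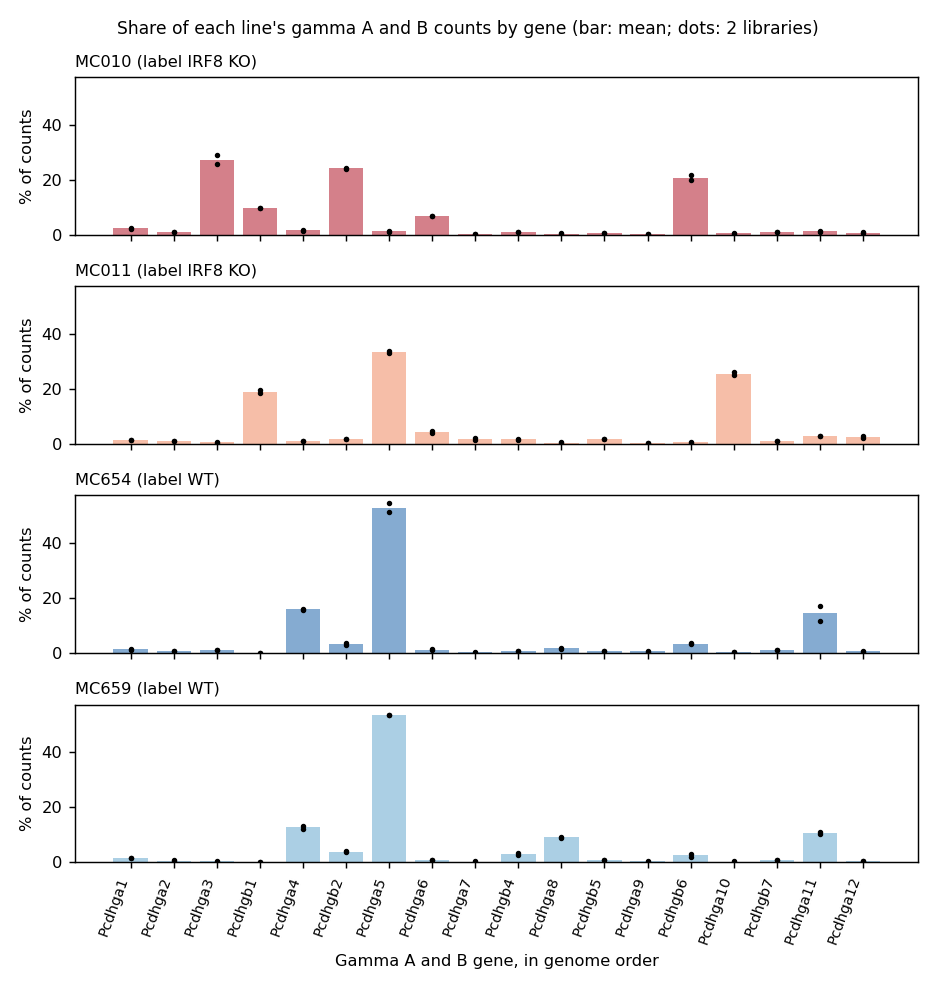
Share of each line's gamma A and B counts taken by each of the 18 genes, in genome order (y axis: percent of counts; bars: mean of 2 libraries; dots: libraries). Pcdhga5 leads in MC011 (33.4%), MC654 (52.9%) and MC659 (53.6%) but not in MC010 (1.21%), where Pcdhga3, Pcdhgb2 and Pcdhgb6 lead.

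Pcdhgb1 had the largest fitted log2 fold change between labels. It had 722 and 479 counts in MC010 and 840 and 592 in MC011, which is 6.31 to 8.71 CPM, and 1, 1, 1 and 0 counts in the libraries labelled WT. The groups did not overlap, and the depth-corrected ratio of the summed counts was 837, with an exact 95% counting interval of 286 to 4064 (adjusted p = 4.71e-06, and 0.000891 with the line as a block). Pcdhga6 was also higher in both lines labelled IRF8 KO, but with MC010 above MC011, at 4.30 and 4.52 CPM in MC010, 1.73 and 1.92 in MC011 and 0.189 to 0.419 in the libraries labelled WT (log2 fold change 3.35 ± 0.44, adjusted p = 0.000811).
Other gamma genes were high in 1 line labelled IRF8 KO alone. Pcdhga3 had 18.8 and 17.2 CPM in MC010, 0.124 and 0.266 in MC011, 0.348 and 0.306 in MC654, and 0.159 and 0.0445 in MC659. MC011 lay within the range of the lines labelled WT. The call between labels (5.40 ± 1.65, adjusted p = 0.0339) rested on MC010: without that line the log2 fold change was −0.16 (adjusted p = 0.864), and the call was also lost with any 1 library of MC010, MC654 or MC659 left out. Pcdhga10 had 11.1 and 10.7 CPM in MC011, 0.306 and 0.204 in MC010, and 0.0340 to 0.141 in the libraries labelled WT. MC011 was thus far above the rest, and the log2 fold change between labels was 5.93 ± 1.48 (adjusted p = 0.015, and 0.359 with the line as a block). Gm26672, antisense to all of its countable part, had 0 to 9 counts in every library.
Pcdhgb6 and Pcdhgb2 moved in opposite directions in MC010 and MC011. Pcdhgb6 had 12.8 and 14.5 CPM in MC010, 0.249 and 0.177 in MC011, 1.17 and 1.02 in MC654, and 0.940 and 0.656 in MC659. MC010 was above and MC011 below every library labelled WT, and the direct difference of MC010 from MC011 was 5.97 ± 0.22 (adjusted p = 4.85e-13). For Pcdhgb2, at 15.5 and 16.3 CPM in MC010 and 0.736 and 0.696 in MC011, that difference was 4.47 ± 0.15 (adjusted p = 2.34e-13). Neither was called between labels (2.87 for Pcdhgb6, adjusted p = 0.119, and 2.85 for Pcdhgb2, adjusted p = 0.0637). Without MC010 those log2 fold changes were −2.16 (adjusted p = 0.000607) and −0.70 (adjusted p = 0.0363).

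The gamma A genes Pcdhga4, Pcdhga11 and Pcdhga8 were lower in both lines labelled IRF8 KO. Pcdhga4 had 0.848 and 1.12 CPM in MC010, 0.508 and 0.443 in MC011, 5.20 and 5.04 in MC654, and 4.02 and 4.37 in MC659, and the labels did not overlap. Its log2 fold change was −2.67 ± 0.32 (adjusted p = 0.000522, and 0.00249 with the line as a block). Pcdhga11 fell by 1.99 ± 0.28 on the log2 scale (adjusted p = 0.00103, and 0.0567 with the block). Pcdhga8 fell by 3.14 ± 0.85 (adjusted p = 0.0207, and 0.235 with the block), but the lines labelled WT also differed from each other, at 0.491 and 0.588 CPM in MC654 and 3.09 and 2.89 in MC659, and without library 1 of MC010 or either library of MC659 the call was lost (adjusted p up to 0.0570). Pcdhga5, the leading gene elsewhere, was low in MC010. It had 0.708 and 0.884 CPM in MC010, 14.7 and 13.8 in MC011 and 17.0 to 18.1 in the libraries labelled WT. Against the lines labelled WT the log2 fold change was −4.48 ± 0.11 in MC010 (adjusted p = 1.2e-15) and −0.29 ± 0.07 in MC011, short of the fold threshold, and the difference of MC010 from MC011 was −4.19 ± 0.12 (adjusted p = 1.91e-14). Over the class, 12 of 20 gamma genes tested were called between labels, 8 higher and 4 lower, beside 22.5% of all genes, 13.7% and 8.72%.

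In the beta cluster, the summed level was 50.7 ± 3.79 CPM in MC010, 37.9 ± 0.152 in MC011, 21.2 ± 0.837 in MC654 and 15.5 ± 1.22 in MC659. Of 13 beta genes tested between labels, 6 were higher and 2 lower, beside 13.7% and 8.72% of all genes tested. Beta protocadherins lack the shared cytoplasmic end of the alpha and gamma proteins and join them in mixed recognition complexes. Pcdhb17 was the highest in both lines labelled IRF8 KO but not in those labelled WT, with 12.1 and 13.9 CPM in MC010, 14.1 and 14.8 in MC011, 1.61 and 1.51 in MC654, and 1.33 and 0.978 in MC659. Both lines of a label were alike and the labels did not overlap (log2 fold change 3.34 ± 0.19, adjusted p = 1.32e-05, and 0.00054 with the line as a block). Pcdhb22 had 7.77 and 8.24 CPM in MC010, 7.87 and 7.81 in MC011, 4.48 and 4.02 in MC654, and 2.91 and 3.22 in MC659 (1.11 ± 0.16, adjusted p = 0.00131). The labels did not overlap, and its share of the beta counts was between 15.8 and 20.7% in every line.
Pcdhb16 and Pcdhb15 were nearly silent in the lines labelled WT. Pcdhb16 had 11.2 and 12.7 CPM in MC010, 4.64 and 3.70 in MC011, 0.120 and 0.0824 in MC654, and 0.329 and 0.389 in MC659 (5.11 ± 0.68, adjusted p = 0.00084). Pcdhb15 had 2.80 and 2.71 CPM in MC010, 1.13 and 0.937 in MC011, and 0, 1, 2 and 5 counts in the libraries labelled WT (6.29 ± 0.77, adjusted p = 0.000594). For both, MC010 was above MC011, by 1.51 ± 0.14 and 1.41 ± 0.27 on the log2 scale, and the labels did not overlap. With the line as a block the adjusted p was 0.0138 for Pcdhb16 and 0.0148 for Pcdhb15.
Pcdhb5 and Pcdhb4 were the 2 beta genes lower by label, with log2 fold changes of −1.21 ± 0.33 and −2.47 ± 0.47 (adjusted p = 0.0213 and 0.00451, and 0.157 and 0.21 with the block). Without either library of MC654 the call of Pcdhb5 was lost (adjusted p up to 0.0569). Pcdhb20 had 2.81 and 3.02 CPM in MC010 and 0.521 to 1.09 in the 6 libraries of the other lines, and MC010 exceeded MC011 by 2.35 ± 0.28 (adjusted p = 1.57e-06). Pcdhb14 and Pcdhb21 were not called between labels (−0.59 ± 0.29 and −0.24 ± 0.33). Per kb of countable length, Pcdhb17 and Pcdhb16 led the beta cluster in MC010, Pcdhb17 and Pcdhb22 in MC011, and Pcdhb21 and Pcdhb5 in both lines labelled WT, where by counts alone Pcdhb22 stood in the place of Pcdhb5.

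The single alpha gene in the table, Pcdhac2, is a C-type isoform. It was low in all lines, with 28 and 12 counts in MC010, 58 and 48 in MC011, 0 and 0 in MC654, and 1 and 0 in MC659. Every library labelled IRF8 KO was above the floor and every library labelled WT below it. The depth-corrected ratio of the summed counts was 139, with an exact 95% counting interval of 24.6 to 5540 (adjusted p = 0.000902, and 0.0165 with the line as a block), and the log2 difference of MC010 from MC011 was −1.54 ± 0.56 (adjusted p = 0.0258).

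Among the non-clustered genes, the delta-1 members Pcdh7, Pcdh1 and Pcdh9 did not move together. Pcdh7, a regulator of adhesion that binds the phosphatase inhibitor SET, was the second highest protocadherin per length in 3 of the 4 lines. It had 436 and 439 CPM in MC010, 241 and 228 in MC011, 119 and 126 in MC654, and 82.0 and 85.8 in MC659. The libraries of the 4 lines did not overlap, both lines labelled IRF8 KO were above both labelled WT, and the log2 fold change was 1.70 ± 0.27 (adjusted p = 0.00203, and 0.0031 with the line as a block). Pcdh1, an adhesion protein of airway epithelium, had 17.5 and 16.8 CPM in MC010, 1.66 and 1.46 in MC011, 5.18 and 3.84 in MC654, and 4.37 and 4.20 in MC659. MC010 was above and MC011 below the lines labelled WT, and the difference of MC010 from MC011 was 3.46 ± 0.15 (adjusted p = 2.99e-12). Pcdh9 showed the opposite order, with 5.33 and 7.07 CPM in MC010, 20.3 and 21.5 in MC011, 11.04 and 10.46 in MC654, and 7.97 and 8.29 in MC659, and its difference of MC010 from MC011 was −1.76 ± 0.11 (adjusted p = 5.88e-10).
The delta-2 genes Pcdh10, Pcdh17 and Pcdh18, whose proteins recruit the WAVE actin-regulating complex, were higher in both lines labelled IRF8 KO. Pcdh18 had 108 and 110 CPM in MC010, 93.9 and 94.8 in MC011, 48.6 and 47.4 in MC654, and 56.9 and 52.1 in MC659 (0.99 ± 0.08, adjusted p = 0.000102, and 0.000873 with the line as a block). The labels did not overlap. Pcdh17 varied most, with 47.5 and 50.5 CPM in MC010, 1.80 and 1.62 in MC011, 0.0719 and 0.0471 in MC654, and 0.283 and 0.133 in MC659. MC010 exceeded MC011 by 4.84 ± 0.12 on the log2 scale (adjusted p = 3.78e-15), so the difference between labels (7.54 ± 1.5, adjusted p = 0.00564) was far from equal in both lines and had an adjusted p of 0.396 with the line as a block.
Pcdh10, whose loss through promoter methylation is known from many carcinomas, had 62 and 34 counts in MC010, 28 and 26 in MC011 and 0 in each of the 4 libraries labelled WT. Set against 3 counts per library, MC010 was at least 14.5-fold higher, and MC011 at least 8.94-fold (adjusted p between labels 0.000794, and 0.00286 with the line as a block). Its highest level was 0.542 CPM, so the RNA was scarce also where it was detected. No methylation was measured here.
The divergent genes were highest in MC010. Pcdh15, a part of the tip links of inner-ear hair cells, had 5.03 and 5.22 CPM in MC010, 1.17 and 1.01 in MC011, and 0.129 to 0.324 in the libraries labelled WT. The labels did not overlap (3.66 ± 0.68, adjusted p = 0.00398, and 0.076 with the line as a block). Pcdh20 had 98 and 79 counts in MC010, 15 and 4 in MC011, and 1 to 4 in the libraries labelled WT. MC010 exceeded MC011 by 3.17 ± 0.56 (adjusted p = 0.000119), and MC011 was not called against the lines labelled WT (1.5 ± 0.65, adjusted p = 0.0566).

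**Figure D3:**
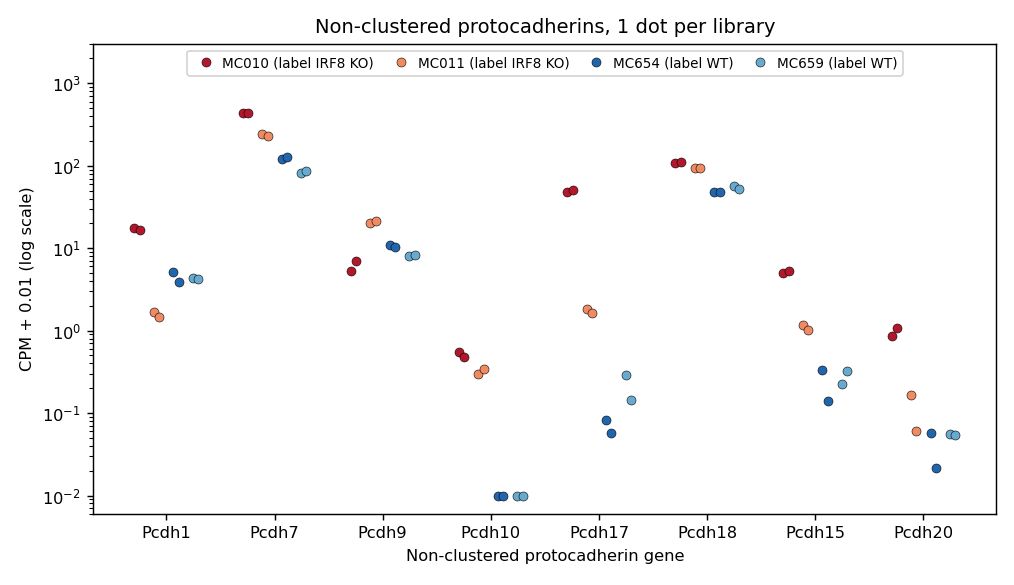
CPM + 0.01 of the 8 non-clustered protocadherins on a log axis, 1 dot per library and 1 color per line. Pcdh7 (82.0 to 439 CPM) and Pcdh18 (47.4 to 110 CPM) are highest, Pcdh10 is at 0 in all 4 libraries labelled WT, and Pcdh1 and Pcdh9 order MC010 and MC011 in opposite ways.

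Taking each line labelled IRF8 KO against both lines labelled WT gave 38 of 47 members called in MC010, 29 higher and 9 lower, where 37.1% of all genes were called, 20.6% higher and 16.5% lower. In MC011 it gave 33 of 47, 21 higher and 12 lower, beside 31.3%, 18.4% and 12.9%. The median log2 fold change was 1.41 in MC010 and 0.62 in MC011, and 0.02 over all genes in both. The 2 comparisons share the libraries labelled WT, so their likeness is no result in itself.
Between lines of the same label, MC010 and MC011 differed in 25 of 47 members, 16 higher and 9 lower in MC010, where 32.6% of all genes were called, 16.3% in either direction. MC654 and MC659 differed in 7 of 47, 3 higher and 4 lower in MC654, where 4.58% of all genes were called, 1.16% higher and 3.42% lower. The 7 were Pcdhb14, Pcdhb16, Pcdhb21, Pcdhga3, Pcdhgb4, Pcdhga8 and Pcdh17, and without library 1 of MC659 the count was 4 (Pcdhb16, Pcdhga3, Pcdhgb4 and Pcdhga8). The largest of these by size was Pcdhga8, with a log2 difference of MC654 from MC659 of −2.47 ± 0.41 (adjusted p = 0.00051), followed by Pcdhgb4 at −2.11 ± 0.37 (adjusted p = 0.000829).

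**Figure D4:**
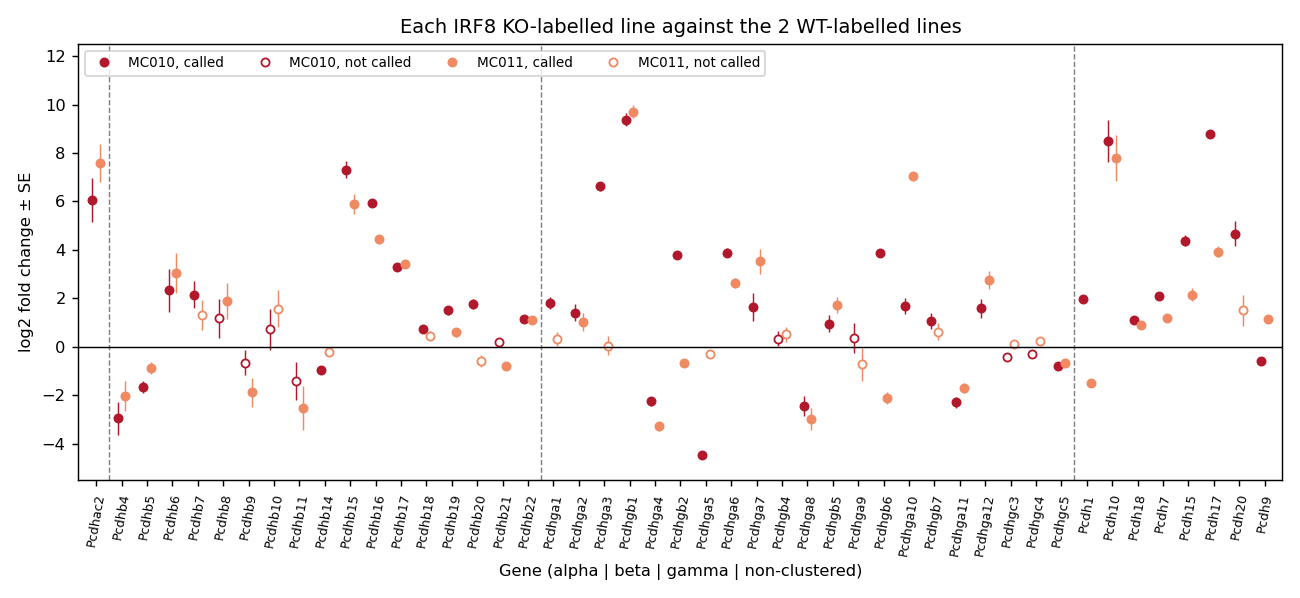
Log2 fold change ± SE of MC010 (red) and MC011 (orange) against the 2 lines labelled WT for the 47 members tested, by gene (dashed lines part the classes; filled: called, open: not called). Pcdhgb1 (9.38 and 9.71) and Pcdhb17 (3.28 and 3.42) lie together in both lines, whereas Pcdhga3 (6.62 and 0.05) and Pcdhga5 (−4.48 and −0.29) do not. Pcdhac2, Pcdhgb1 and Pcdh10 have 3 or fewer counts in all libraries labelled WT together, and their fitted values depend on the fit's prior.

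Clustered and non-clustered genes were both called in most cases between labels. There, 21 of 34 clustered members tested were called (61.8%), 15 higher and 6 lower, and 5 of 7 non-clustered members (71.4%), all 5 higher. Over all genes tested, 22.5% were called, 13.7% higher and 8.72% lower. The median log2 fold change was 1.11 in clustered and 1.70 in non-clustered genes. Between MC010 and MC011 the counts were 19 of 39 and 6 of 8, beside 32.6% of all genes. Between MC654 and MC659 they were 6 of 39 and 1 of 8, beside 4.58%. The difference between the classes was not tested. In level, the summed CPM of the 8 non-clustered genes was 624.9 ± 7.08 in MC010, 354 ± 8.70 in MC011, 186 ± 2.67 in MC654 and 151 ± 0.539 in MC659, most of it Pcdh7, while the gamma sum was 250.5 ± 4.48, 304 ± 12.3, 281 ± 12.8 and 282 ± 8.51. The gamma sum, most of it Pcdhgc3, was lowest in MC010. The sums of the beta genes and of the gamma A and B genes, given above, were like the non-clustered sum higher in both lines labelled IRF8 KO and highest in MC010.

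The genes beside the clusters were read as well, without Pcdh1, a member that also lies within 1 Mb of the clusters. Of 30 other protein-coding genes tested within 1 Mb of the clusters, 4 were called between labels, all higher (13.3%, beside 13.7% of all genes called higher and 22.5% called in either direction), with a median log2 fold change of 0.07. Of the 4, Cystm1 was not called with the line as a block (adjusted p = 0.251). Taf7, a subunit of the general transcription factor TFIID whose gene lies between the beta and gamma clusters, had 5.88 and 5.52 CPM in MC010, 4.02 and 3.90 in MC011, and 1.85 to 2.31 in the libraries labelled WT (1.22 ± 0.19, adjusted p = 0.00181). The labels did not overlap. The other 3 were Cd14 (1.19 ± 0.18), the lipopolysaccharide co-receptor, Spry4 (1.94 ± 0.42), an inhibitor of growth-factor signaling, and Cystm1 (0.67 ± 0.20). Slc25a2, next to Taf7, had at most 6 counts in any library and was not tested.

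Regulators of the choice of clustered genes had small differences between labels. None of the 24 listed genes was called between labels by edgeR or by DESeq2, although 13 and 14 had an unadjusted p under 0.05, and 8 had an adjusted edgeR p under 0.05 with changes below the fold threshold, 1 up and 7 down. Ctcf had 123 to 142 CPM in all libraries (0.05 ± 0.05). Rad21, a cohesin subunit, had a log2 fold change of 0.28 ± 0.06 and Smc3, another, −0.42 ± 0.10. Smchd1, a structural-maintenance protein that represses the clusters in mouse, was lower in MC011 alone, with 91.5 and 94.7 CPM there and 191 to 213 CPM in the 6 libraries of the other lines. Its log2 difference from the lines labelled WT was −1.13 ± 0.05 in MC011 (adjusted p = 2.83e-12) and −0.04 ± 0.05 in MC010. In MC010, Uhrf1, which guides maintenance methylation, was higher (0.71 ± 0.04) and Tet1, a methylcytosine oxidase, lower (−0.78 ± 0.10). Against the lines labelled WT, 2 of the 24 were called in MC011, both lower, and 2 in MC010, 1 higher and 1 lower. Over all genes tested, 31.3% were called in MC011 and 37.1% in MC010. Whether the levels of these regulators bear on any protocadherin was not tested.

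Of the listed proteins that bind or cut protocadherins, 5 of 23 genes tested were called between labels (21.7%, beside 22.5% of all genes), a share near that of all genes. Ptk2b (Pyk2), a kinase that clustered protocadherins inhibit, was higher by 2.28 ± 0.27 (adjusted p = 0.000522), with 10.6 to 21.8 CPM in the libraries labelled IRF8 KO and 3.04 to 3.79 in those labelled WT. Ret, a receptor kinase that associates with protocadherins, was lower (−4.35 ± 0.27, adjusted p = 2.32e-05), with 0.165 to 0.332 CPM against 4.54 to 6.05. Neither overlapped between labels. In the WAVE complex, which delta-2 protocadherins recruit, Cyfip2 was higher (2.22 ± 0.53, adjusted p = 0.0127, and 0.136 with the line as a block) and Abi2 lower (−0.76 ± 0.07), while Nckap1 was not called (0.16 ± 0.08). Cdh2, the N-cadherin with which some protocadherins associate, was higher by 1.27 ± 0.33 between labels (adjusted p = 0.0184, and 0.0561 with the block), with 181 and 185 CPM in MC011 and 72.8 and 74.2 in MC010.

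Because protocadherins are best known from neurons, markers of other cell types were read in the same libraries. The summed CPM of the 9 neuron markers in the table was 87.4 to 130 in the libraries labelled IRF8 KO and 13.2 to 18.3 in those labelled WT. Of 8 tested, Stmn2, Nefl, Nefm and Elavl4 were higher and Snap25 lower between labels, where 13.7% of all genes were higher and 8.72% lower. Nefl made up most of the sum in MC010 (90.7 and 88.9 CPM) and Tubb3 in MC011 (70.9 and 62.6 CPM), while the synaptic genes Snap25 and Syt1 did not exceed 0.348 CPM in any library. The endothelial markers summed to 11.5 to 14.4 against 3.00 to 3.72 CPM, mostly Egfl7, with Pecam1 and Cdh5 at no more than 0.412 CPM. Fibroblast and mesenchymal markers, all 10 in the table, summed to 9755 to 10598 against 14446 to 16174 CPM. The single genes did not follow this sum. Between labels 3 of the 10 were called higher and 1 lower, and the median log2 fold change was 0.50. Vim was at 4532 to 7384 CPM, so markers of the labelled sarcoma were present in every library. The epithelial markers summed to 531 and 565 CPM in MC010, 34.1 and 35.7 in MC011 and 114 to 129 in the libraries labelled WT. The Schwann cell and melanocyte markers gave 5.88 to 7.66 and 5.90 to 7.23 CPM, and the hematopoietic markers 5.53 to 7.29 and 9.61 to 11.4 CPM. In cultures measured as a whole, fewer cells of a type and less RNA per cell cannot be told apart, and the part of other cell types in the protocadherin differences was not tested.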

How the data were processed

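RNA from 8 libraries of 4 mouse tumor cell lines was sequenced as stranded mRNA. Per the labels, the authors aligned reads to mm10 (GRCm38.p6) with STAR 2.7.3a, counted them with HTSeq 0.11.2 and compared genotypes with DESeq2. The paper's methods give other versions of STAR and HTSeq, and the strand option of counting is not given in the sources used here. The authors deposited a table with raw counts per gene and library, counts scaled by size factors, and their own comparison (fold changes and p-values), and the last was not used. The smallest sum of counts of any gene over the libraries was 20. Genes were not left out by chromosome, so any X- or Y-linked genes stayed in the fits.

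Tests on the raw counts used edgeR 4.0.16 under R 4.3.3 (TMM, filterByExpr, robust quasi-likelihood test, Benjamini-Hochberg adjustment over all genes tested). A gene counted as called with an adjusted p under 0.05 and an absolute log2 fold change above 0.59. A fit of 4 libraries against 4 compared the labels (15153 genes), and a fit with 1 group per line compared the lines (16703 genes). CPM is scaled by TMM. Standard errors derive from the log2 fold change and the F statistic. The fits were tested on simulated counts. Countable lengths and 75-base windows come from GENCODE vM21, in which all 49 members have the same span as in the table, and promoters from RefSeq (GRCm38.p6). Alternatives were DESeq2 1.42.0, limma-voom (limma 3.58.1) with the line as a random block, line sums, no filter, upper-quartile scaling, no fold threshold, the library number as a replicate block, and each library or line left out. The floor of 3 counts and all intervals cover counting error only.

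The members and gene lists were chosen with earlier results of these data known. Any member could be named. Values per library, for some libraries as a range, were given for genes picked in each class. These were the 3 genes with the highest mean CPM and the 3 with the largest change between labels. The 3 with the largest difference between lines of a label were added. Other members, and the genes of the lists, were named after their values were seen.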

Additional observations from a re-analysis of the deposited data

Results flagged for a closer look

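In 3 of the 39 groups of 4 libraries examined (members and label groups), 1 library stood apart from its group by Dixon's test, where chance alone gives about 1 in 20. Pcdhac2 was at 0.0113 CPM in library 1 of MC659, the only library labelled WT with a count. Pcdhgb1 was at 0 CPM in library 2 of MC659, where the other 3 libraries labelled WT had 1 count each. Pcdh20 was at 0.0118 CPM in library 2 of MC654. All 3 values lie below the floor of 3 counts.

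In 4 members, MC010 and MC011 lay on opposite sides of the lines labelled WT, with both called against them. The direct log2 difference of MC010 from MC011 was 4.47 for Pcdhgb2, 5.97 for Pcdhgb6, 3.46 for Pcdh1 and −1.76 for Pcdh9.

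Among the genes inside the clusters that are no members, Pcdhgb8 and 3222401L13Rik also passed the test between labels. Pcdhgb8, annotated as a polymorphic pseudogene in the gamma cluster, had 33 and 39 counts in MC010, 187 and 136 in MC011 and 4 to 16 in the libraries labelled WT, with a log2 fold change of 3.59. For 3222401L13Rik, which lies just before the gamma cluster, it was 0.87.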

How the results depend on the processing

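Of the results and alternatives computed, 793 values stayed alike, and 29 moved, 86 weakened, 24 strengthened and 21 reversed. A gene's fold change was alike if direction and call held, a count of calls if within a fixed ratio of the main count. A cluster sum was alike if within the SD of its line's 2 libraries. Leaving out 1 of 2 libraries cannot move a sum beyond that SD, so those sums are alike by construction. Between labels, the 26 members called became 12 with the line as a random block, 28 without MC010 (21 of the 26 among them), 35 without MC011 (24 of them), 16 without MC654, 14 without MC659 and 0 with line sums, and 23 to 30 with each library left out. Of these, clustered members (21) became 9 with the block, 13 without MC654, 11 without MC659 and 0 with line sums, and non-clustered members (5) became 3, 3, 3 and 0 in that order, and 8 without MC011. They were 18 to 24 and 5 to 6 with libraries left out. DESeq2 called 29, no filter 27 and upper-quartile scaling 26. Counts with libraries left out were 38 to 41 across lines, 21 to 25 for MC010 against MC011, 34 to 38 and 28 to 34 for MC010 and MC011 against the lines labelled WT, and 4 to 7 for MC654 against MC659, where 4 came without library 1 of MC659 and 11 without a fold threshold. The cause was not tested.

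Regulators called (0) became 2 without MC010 (Smchd1 and Smc3), 2 without MC011 (Uhrf1 and Tet1) and 8 without a fold threshold. Binding or cutting proteins (5) became 3 with the block (Cyfip2 and Cdh2 lost), 3 without MC654, 0 with line sums and 11 without a fold threshold, and were 4 to 6 with libraries left out. Neighboring genes (4) became 7 without MC010 and without MC011, 2 without MC659, 0 with line sums and 8 without a fold threshold, and were 3 to 5 with libraries left out. Without MC010, 7 members reversed between labels: Pcdhb20 (−0.61), Pcdhgc3 (0.080), Pcdhgc4 (0.20), Pcdhga3 (−0.16), Pcdhgb2 (−0.70), Pcdhgb6 (−2.16) and Pcdh1 (−1.51). Without MC011, Pcdh9 (−0.62), Pcdhb21 (0.16) and Pcdhgb4 (−0.030) did, without MC654 Pcdhb21 (0.13) and Pcdhgb4 (−0.63), without MC659 Pcdhgc4 (0.17), and with the line as a block Pcdhgc4 (0.030). With single libraries left out, the uncalled Pcdhgc4 and Pcdhgb4 also changed sign (−0.16 to 0.091 and −0.22 to 0.49). With upper-quartile scaling the alpha sum in MC011 was 0.598 and the beta sum 37.5 CPM.

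Libraries with the same number in different lines share only that number (correlations of their deviations −0.0273 to 0.0552). With that number as a replicate block, 25 members were called between labels, with Pcdhga3 lost, 40 across lines, 25 between MC010 and MC011, 7 between MC654 and MC659, and 38 and 32 for MC010 and MC011 against the lines labelled WT.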
